A study of Mus musculus with 6 samples.

Results

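The genes of the cytosolic ribosome's proteins were taken by name from the deposited gene table: every row whose symbol is Rpl or Rps followed by a digit, or Rplp0, Rplp1, Rplp2 or Rpsa, leaving out pseudogene names with -ps, the S6 kinase genes and Rps19bp1. This gave 91 of 30777 genes. By what their names denote, 43 encode large-subunit proteins, 3 the P stalk and 31 small-subunit proteins (77 subunit genes in all), while 6 are paralogues of subunit genes and 8 are retrocopies or pseudogenes whose names carry no -ps. After a filter on low counts 89 were tested; the other 2, Rpl39l and Rpl3l, lay at or near 0 in every library.

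The study sequenced polyadenylated RNA of whole colon tissue from BALB/c mice. One group of 3 libraries came from mice given 5-fluorouracil and berberine (5-Fu+BBR 1 to 3), the other group of 3 from mice given 5-fluorouracil alone (5-Fu 1 to 3). 5-Fluorouracil is a pyrimidine analogue used in chemotherapy that blocks thymidylate synthase and is also built into RNA, and berberine is a plant alkaloid. Both groups share 5-fluorouracil, so the comparison is of berberine added to it and holds no untreated colon. The labels give no dose, time, age or sex and do not say whether each library is a separate animal, so the p-values measure the spread between these libraries, which may be technical. The libraries held between 53824752 and 63831168 counts.

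A ribosome holds its core proteins in fixed proportion, so cells make them in matched amounts, and free ribosomal proteins that are not built in are degraded. Their mRNAs are among the most abundant in dividing tissue, and most begin with a C followed by a run of pyrimidines, the 5' terminal oligopyrimidine or TOP sequence, through which mTORC1 and LARP1 set their translation and stability. The colon crypt renews its epithelium continuously, and ribosome production is known to accompany crypt cell division. When assembly is disturbed, as 5-fluorouracil is known to do at the level of rRNA processing, free Rpl5 and Rpl11 with the 5S rRNA bind Mdm2 and stabilise p53.

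Most members had somewhat lower counts in the 5-Fu+BBR libraries than in the 5-Fu libraries, by a similar amount, and no single one passed the adjusted threshold. Levels are given in CPM, a gene's counts scaled to a common library size with TMM factors, and were compared with edgeR's quasi-likelihood test over all 20101 genes tested. Of the 89 members tested, 85 had a negative log2 fold change (5-Fu+BBR over 5-Fu) and 4 a positive one, where 49.3% of all genes tested were negative. The members' median was -0.35, or 1.27-fold lower, with quartiles at -0.40 and -0.24. The median over all genes tested was 0.005.

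None of the 89 members had an adjusted p under 0.05, where 15 genes did in all (0.0746% of those tested). At an unadjusted p under 0.05, 32 members were lower (36.0%) and 1 was higher, against 6.08% and 9.48% of all genes tested. In 29 members (32.6%) every 5-Fu+BBR library lay below every 5-Fu library, and in 2 every one lay above, against 9.68% and 12.3% of all genes. On the deposited FPKM, which carry no TMM scaling, 51 members were lower without overlap. The share of all genes on FPKM is not given, so that count has no background beside it. Abundant genes were lower more often than others here: among the 2118 other genes averaging 100 CPM or more, 66.1% were negative and the median was -0.10. In that set 12.2% were lower and 6.19% higher at p under 0.05, and 18.6% were lower and 5.62% higher without overlap. Limma-voom, limma on log2 FPKM and edgeR with a replicate block also passed 0 members at the adjusted threshold. DESeq2 passed 6 (Rps12, Rps4x, Rps6, Rpl8, Rpsa and Rpl7), with 1227 genes in all, or 6.48% of those it gave an adjusted p. With 3 libraries against 3, an exact permutation test of a single gene cannot go below a two-sided p of 0.1.

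**Figure D1:**
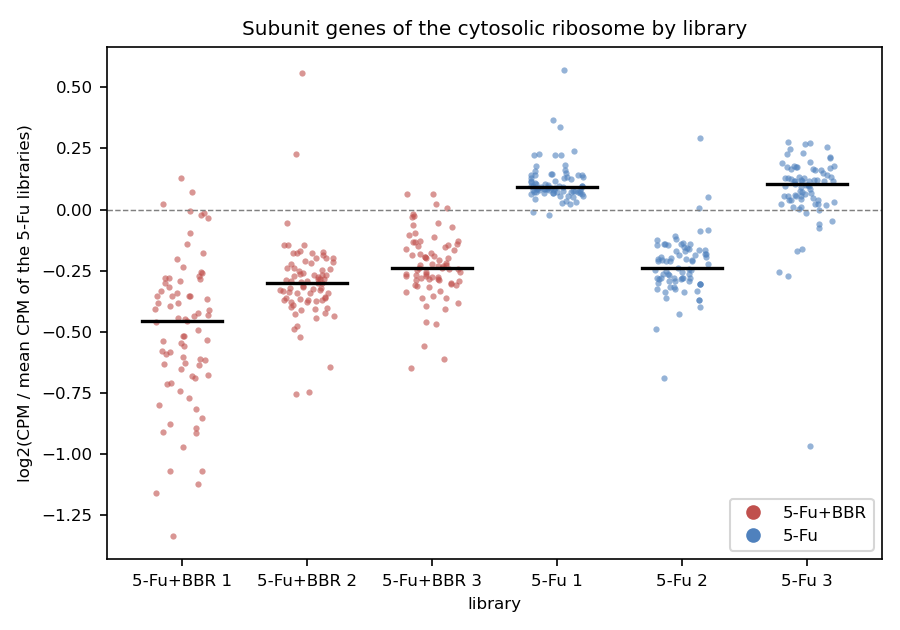
Each point is 1 of the 77 subunit genes in 1 library, as log2 of its CPM over the gene's mean in the 5-Fu libraries; black bars are medians. The medians lie at -0.45, -0.29 and -0.23 in the 5-Fu+BBR libraries, and at 0.10, -0.23 and 0.11 in the 5-Fu libraries, so 5-Fu 2 lies beside 5-Fu+BBR 3.

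The libraries of the 2 groups touched. Relative to each gene's 5-Fu mean, the members' median log2 level was -0.44, -0.27 and -0.22 in the 5-Fu+BBR libraries, against 0.10, -0.20 and 0.11 in the 5-Fu libraries. Among the 77 subunit genes, 52 had their lowest CPM of all 6 libraries in 5-Fu+BBR 1, and 73 had their lowest CPM of the 5-Fu group in 5-Fu 2. In 69 subunit genes all 5-Fu+BBR libraries lay below both 5-Fu 1 and 5-Fu 3. Leaving out single libraries kept the median negative, between -0.25 and -0.43, but moved the counts. Without 5-Fu 2, 60 members were lower at p under 0.05 and 76 lower without overlap. The first count was 2 without 5-Fu 1, 9 without 5-Fu 3, 9 without 5-Fu+BBR 1 and 11 without 5-Fu+BBR 2. Genes past the adjusted threshold in all moved too, from 15 to 159 without 5-Fu 2 and to 0 without 5-Fu 1. The shares of all genes at these 2 criteria are not given for the smaller sets, and fewer libraries separate more easily.

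As a share of all deposited counts, the members took 2.60%, 3.02% and 3.15% in the 5-Fu+BBR libraries, against 3.94%, 3.31% and 3.68% in the 5-Fu libraries. The mean was 2.92% ± 0.289 in the 5-Fu+BBR libraries and 3.64% ± 0.313 in the 5-Fu libraries (SD, n = 3 each), a difference of -0.721 percentage points, and the groups did not overlap. By FPKM, the deposited level per transcript length, the members summed to 4.55% ± 0.386 of all FPKM in the 5-Fu+BBR libraries and 5.80% ± 0.400 in the 5-Fu libraries. Leaving the mitochondrially encoded transcripts out of the total gave count shares of 3.08% ± 0.294 in the 5-Fu+BBR libraries and 3.83% ± 0.337 in the 5-Fu libraries. In bulk tissue, fewer cells with a high ribosomal protein content and less of this RNA per cell cannot be told apart.

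Among the subunit genes, FPKM set side by side spanned a wide range although the proteins are used in fixed proportion. The median FPKM over the 77 genes was 131, 148 and 153 in the 5-Fu+BBR libraries, against 197, 164 and 182 in the 5-Fu libraries. The upper quartile was between 2.52 and 2.75 times the lower one in each library. The highest was Rplp1, one of the acidic P-stalk proteins, with 694, 917 and 872 FPKM in the 5-Fu+BBR libraries, against 1211, 899.6 and 1137 FPKM in the 5-Fu libraries. Rps15, Rps3a1 and Rpl41 were also high. Rpl41, the shortest of all ribosomal proteins, had 468, 496 and 489 FPKM in the 5-Fu+BBR libraries, against 694, 512 and 556 FPKM in the 5-Fu libraries. At the low end, 7 subunit genes had a mean under 30 FPKM: Rpl21, Rpl29, Rpl35a, Rpl30, Rpl26, Rps18 and Rps2. For 5 of these 7, all but Rpl26 and Rpl29, most of the reads of the gene and its named pseudogenes stood in pseudogene rows, as described further down.

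All 31 small-subunit genes had negative fold changes, with a median of -0.37. Of them, 13 were lower at p under 0.05 (41.9%) and 9 were lower without overlap (29.0%). These shares were 6.08% and 9.68% of all genes tested, and 12.2% and 18.6% of other genes averaging 100 CPM or more. Rps12, a protein of the small subunit's head that in Drosophila is needed for cell competition between cells with different ribosomal gene doses, had the smallest p of all members (chr10:23785183-23787275, minus strand, build GRCm38). Its level was 333, 304 and 304 CPM in the 5-Fu+BBR libraries, against 509.5, 448 and 471 CPM in the 5-Fu libraries. The 6 libraries separated with a wide gap, the lowest 5-Fu library being 5-Fu 2 (log2 fold change -0.60 ± 0.12 SE, edgeR adjusted p = 0.107). It averaged 314 ± 16.4 CPM in the 5-Fu+BBR libraries and 476 ± 31.3 CPM in the 5-Fu libraries (SD, n = 3 each). Its 22 pseudogene rows held many of the family's reads, and the summed family gave a log2 fold change of -0.54, also without overlap.

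Rps4x, the X-linked eS4 protein, had 654, 736 and 714 CPM in the 5-Fu+BBR libraries, against 999, 855 and 984 CPM in the 5-Fu libraries. Every 5-Fu+BBR library was lower than every 5-Fu library (log2 fold change -0.43 ± 0.13 SE, edgeR adjusted p = 0.196). Rps6, the protein phosphorylated by the S6 kinases downstream of mTORC1, had 702, 665 and 687 CPM in the 5-Fu+BBR libraries, against 998, 803 and 909.9 CPM in the 5-Fu libraries. The 5-Fu+BBR libraries lay close together and below all 5-Fu libraries (log2 fold change -0.40 ± 0.13 SE, edgeR adjusted p = 0.223). Rpsa, the 40S protein also known as the laminin receptor precursor, had 1029, 974 and 999 CPM in the 5-Fu+BBR libraries, against 1387, 1151 and 1372 CPM in the 5-Fu libraries (log2 fold change -0.38 ± 0.13 SE, edgeR adjusted p = 0.245). Rps3, which lines the mRNA entry channel, was likewise lower without overlap at a log2 fold change of -0.37.

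Rps21 had the most negative log2 fold change of all members. It had 83.9, 152 and 154 CPM in the 5-Fu+BBR libraries, against 215, 164 and 255 CPM in the 5-Fu libraries. The groups did not overlap, but 5-Fu+BBR 2 and 3 lay just under 5-Fu 2 and 5-Fu+BBR 1 far under both (log2 fold change -0.70 ± 0.26 SE, edgeR adjusted p = 0.269). Rps27a, which is made as a fusion with ubiquitin, had 212, 362 and 332 CPM in the 5-Fu+BBR libraries, against 453, 329 and 419 CPM in the 5-Fu libraries, and here the groups overlapped (log2 fold change -0.41 ± 0.22 SE, edgeR adjusted p = 0.413). At the other end stood Rps24 and Rps26, with log2 fold changes of -0.12 ± 0.15 and -0.13 ± 0.14, both smaller than their errors. Rps24 had 771, 705 and 666 CPM in the 5-Fu+BBR libraries, against 819, 642 and 875 CPM in the 5-Fu libraries.

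**Figure D2:**
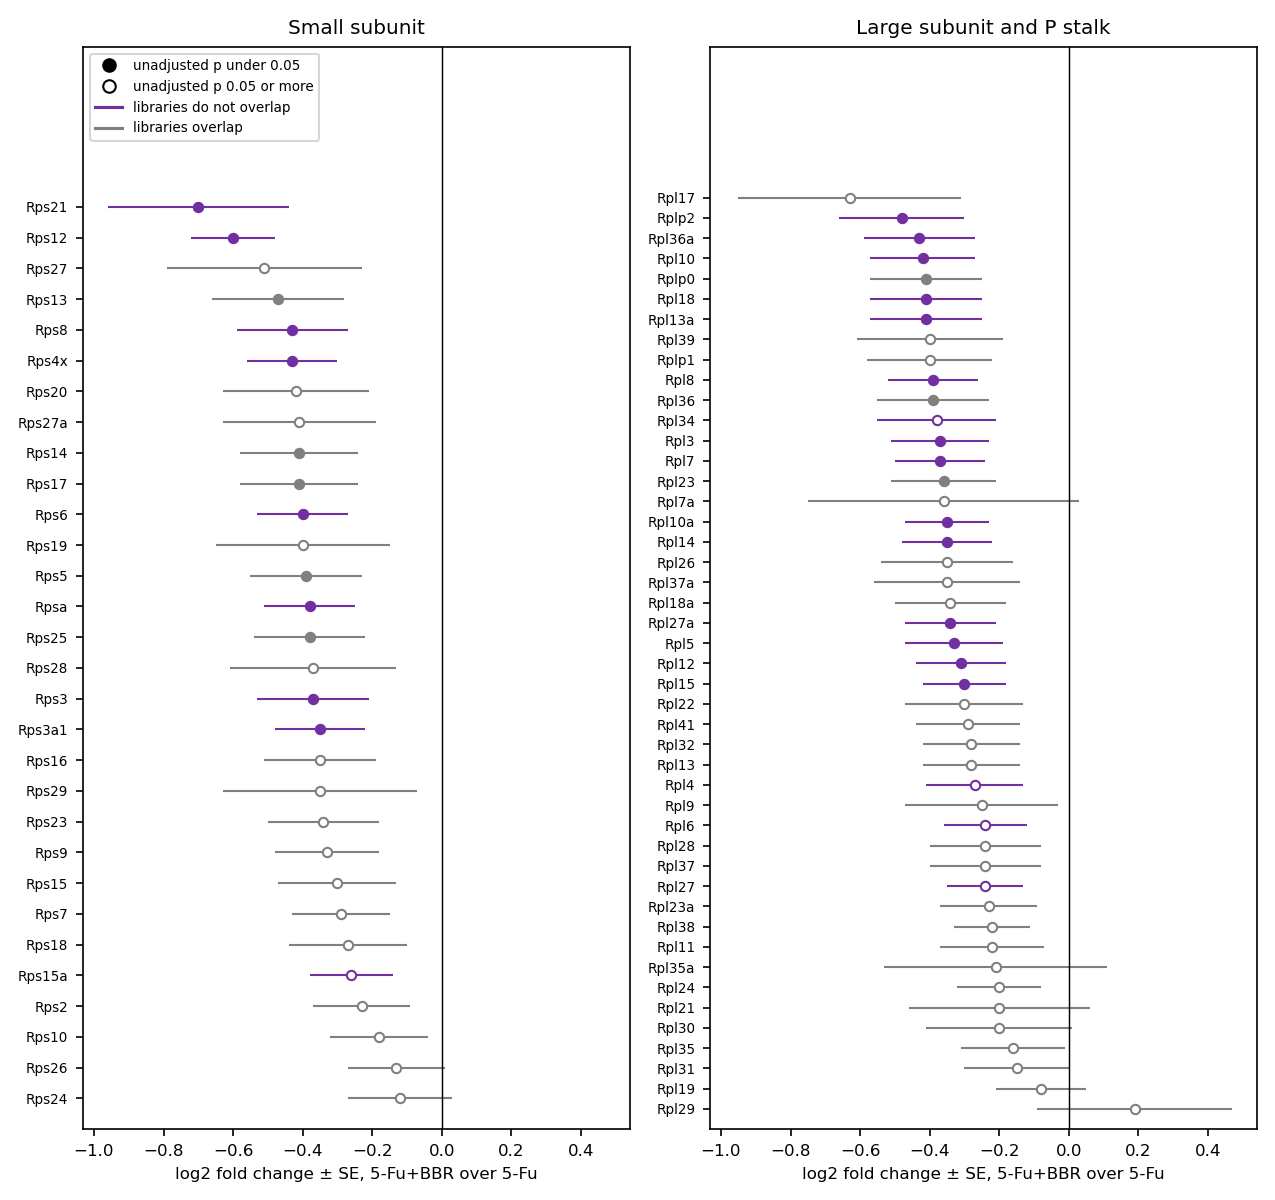
Log2 fold change (5-Fu+BBR over 5-Fu) with its standard error for 30 of the 31 small-subunit genes and for the 46 large-subunit and P-stalk genes; filled points have an unadjusted p under 0.05 and purple marks genes whose libraries do not overlap. The values plotted are negative from -0.70 for Rps21 upward, except that of Rpl29 at 0.19.

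In the large subunit, 42 of 43 genes had negative fold changes, with a median of -0.30. Here 15 were lower at p under 0.05 (34.9%) and 17 lower without overlap (39.5%). The shares were 6.08% and 9.68% of all genes tested, and 12.2% and 18.6% of other genes averaging 100 CPM or more. Rpl8, which lies close to the peptidyl transferase centre, had 425, 487 and 498 CPM in the 5-Fu+BBR libraries, against 645, 567 and 637 CPM in the 5-Fu libraries and separated the groups (log2 fold change -0.39 ± 0.13 SE, edgeR adjusted p = 0.219). Rpl10a, the protein of the mobile L1 stalk, had 428, 416 and 439.5 CPM in the 5-Fu+BBR libraries, against 566, 488 and 584 CPM in the 5-Fu libraries, again without overlap (log2 fold change -0.35 ± 0.12 SE, edgeR adjusted p = 0.241). Rpl10, joined late in maturation as Eif6 and the export adaptor Nmd3 leave the subunit, had 564, 654 and 718 CPM in the 5-Fu+BBR libraries, against 879.6, 766 and 937 CPM in the 5-Fu libraries (log2 fold change -0.42 ± 0.15 SE, edgeR adjusted p = 0.245). Rpl3 and Rpl7 were lower without overlap as well, each with a log2 fold change of -0.37.

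Rpl5 and Rpl11, the partners of the 5S rRNA, differed in how clearly the groups separated. Rpl5 had 612, 628 and 698 CPM in the 5-Fu+BBR libraries, against 865, 708 and 868 CPM in the 5-Fu libraries, without overlap (log2 fold change -0.33 ± 0.14 SE, edgeR adjusted p = 0.299). Rpl11 had 331, 404 and 418 CPM in the 5-Fu+BBR libraries, against 499, 388 and 453 CPM in the 5-Fu libraries, and 5-Fu 2 lay below 5-Fu+BBR 2 and 3 (log2 fold change -0.22 ± 0.15 SE, edgeR adjusted p = 0.533). The difference between the 2 genes was not tested. Rpl19 was nearly level, with 659, 547 and 572 CPM in the 5-Fu+BBR libraries, against 666, 569.8 and 646 CPM in the 5-Fu libraries (log2 fold change -0.08 ± 0.13). The one positive subunit gene, Rpl29, was barely measured, with 2.96, 4.79 and 3.41 CPM in the 5-Fu+BBR libraries, against 3.801, 3.27 and 2.70 CPM in the 5-Fu libraries, and its error exceeded its log2 fold change of 0.19.

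The P stalk, which binds the elongation factors, had 3 of 3 genes negative with a median of -0.41. Rplp0, the scaffold of the stalk, had 870.2, 714 and 680.4 CPM in the 5-Fu+BBR libraries, against 1016, 866 and 1119.8 CPM in the 5-Fu libraries, so 5-Fu+BBR 1 just passed the lowest 5-Fu library (log2 fold change -0.41 ± 0.16 SE, edgeR adjusted p = 0.278). Rplp2, one of the 2 small stalk proteins, had 189, 264 and 259.9 CPM in the 5-Fu+BBR libraries, against 352, 270.3 and 375 CPM in the 5-Fu libraries and did not overlap (log2 fold change -0.48 ± 0.18 SE, edgeR adjusted p = 0.261). Rplp1, the other one, had 426, 528 and 511 CPM in the 5-Fu+BBR libraries, against 712, 501 and 726 CPM in the 5-Fu libraries, with 5-Fu 2 below 5-Fu+BBR 2 and 3 (log2 fold change -0.40 ± 0.18 SE, edgeR adjusted p = 0.322). The 2 stalk partners thus shared the order of their libraries except at 5-Fu 2.

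**Figure D3:**
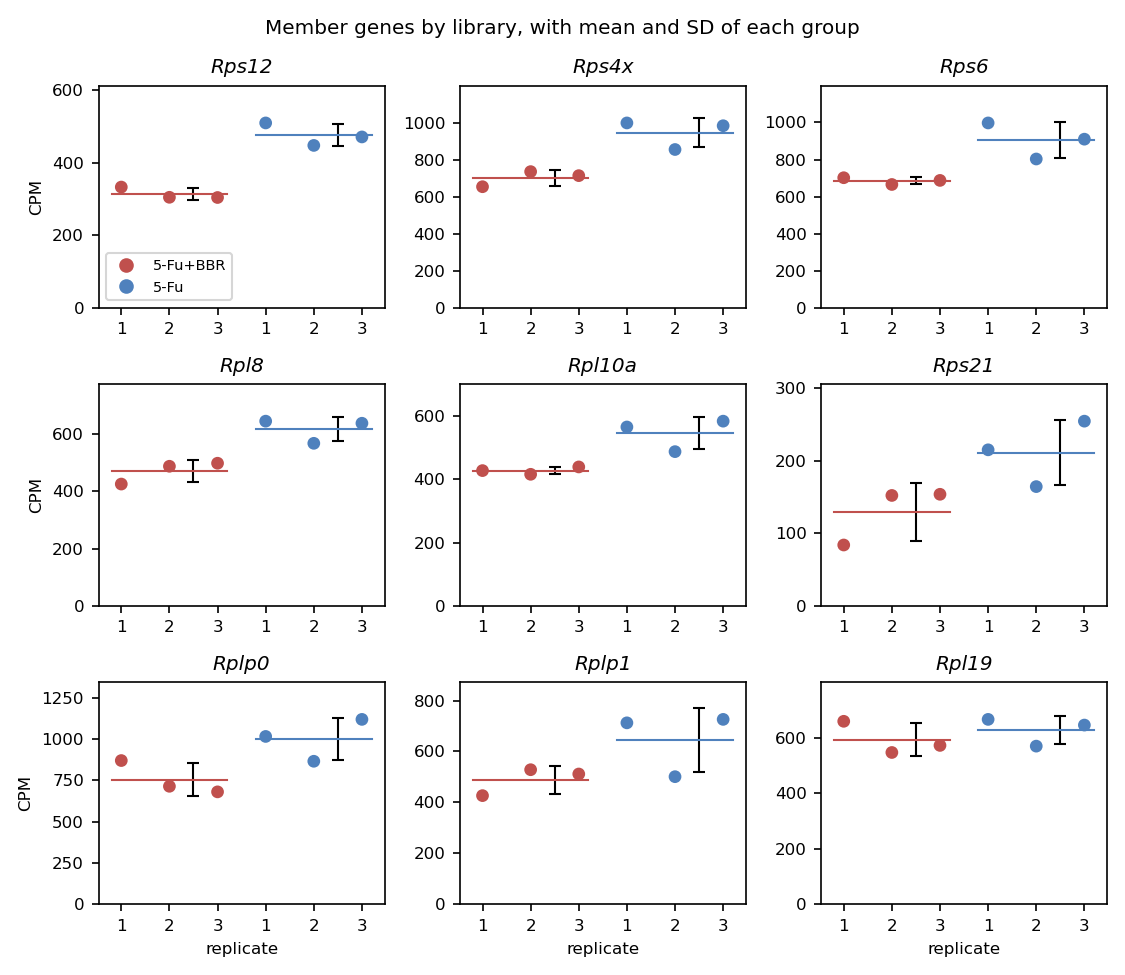
CPM by replicate for 9 members, 5-Fu+BBR on the left of each panel and 5-Fu on the right, with horizontal lines at the group means and bars for the SD (n = 3 each). Rps12, Rps4x, Rps6, Rpl8 and Rpl10a separate the groups, Rplp0 and Rplp1 overlap, and Rpl19 is nearly level.

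The members that separated the groups were counted by the length of the coding sequence (principal transcript, GENCODE M21). Of the 22 subunit genes with at least 600 coding bases, 17 were lower at p under 0.05 and 17 lower without overlap (77.3% each). Of the 55 shorter ones, 13 were lower at p under 0.05 and 10 without overlap. Of all genes tested, 6.08% were lower at p under 0.05 and 9.68% without overlap. Of other genes averaging 100 CPM or more, these shares were 12.2% and 18.6%. Shares of other genes by coding length are not given, so the counts have no background of like length. The median log2 fold change was -0.38 over the 18 genes under 360 bases, -0.32 over the 18 from 360 to under 450, -0.29 over the 19 from 450 to under 600 and -0.37 over the 22 long genes. These length limits were chosen after the values were seen, and the difference was not tested.

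The short genes varied most in 5-Fu+BBR 1. Set against the mean of 5-Fu+BBR 2 and 3, that library had a median log2 level (CPM + 0.5) of -0.51 over the 18 subunit genes under 360 bases, 15 of which were lowest of the group there. The same median was -0.15 over the 18 from 360 to under 450 bases and -0.24 over the 19 from 450 to under 600. For the 22 genes of at least 600 bases it was -0.13, so the medians did not change steadily with length. 5-Fu+BBR 1 was also lowest of its group in 12, 14 and 14 genes of these 3 sets. For other genes averaging 10 CPM or more the median was -0.19 for the 419 under 360 bases and 0.04 for the 8537 of at least 600 bases. Between them it was -0.10 from 360 to under 450 bases and -0.04 from 450 to under 600. Of the 419 other short genes, 251 were lowest in 5-Fu+BBR 1, as were 2624 of the 8537 long ones. The part of this in the members' lower values was not tested. Relative to the 5-Fu mean, the mean of 5-Fu+BBR 2 and 3 had a median of -0.23 for the short genes and -0.31 for the long genes, and 5-Fu+BBR 1 had -0.78 for the short genes and -0.45 for the long genes.

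**Figure D4:**
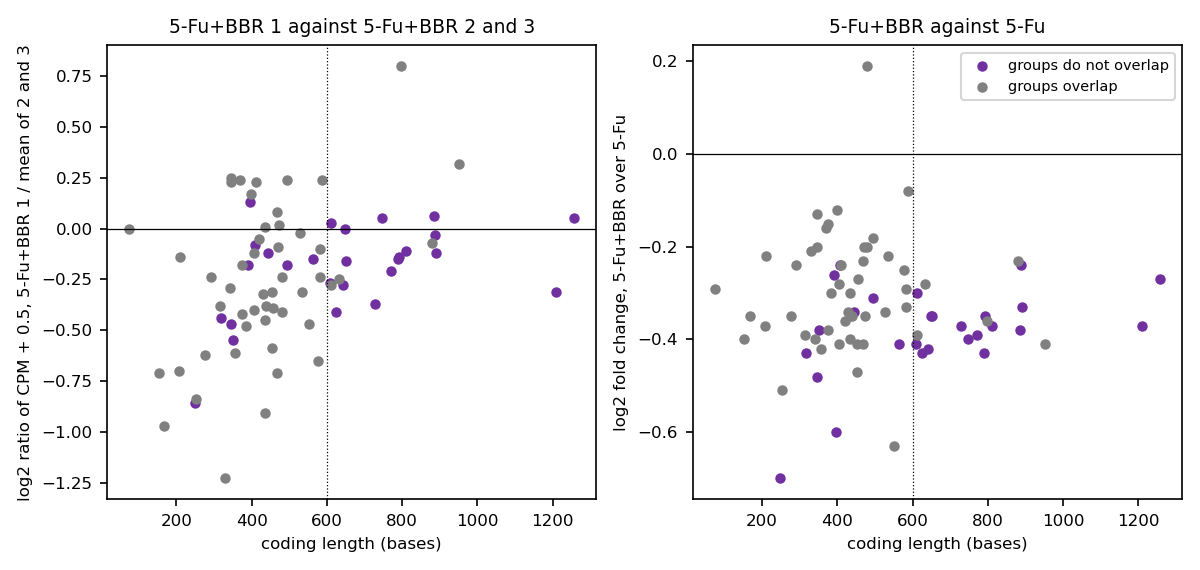
Each point is a subunit gene by its coding length in bases; on the left, log2 of its CPM in 5-Fu+BBR 1 over the mean of 5-Fu+BBR 2 and 3, on the right its log2 fold change (5-Fu+BBR over 5-Fu), with purple for genes whose groups do not overlap and a dotted line at 600 bases. Rpl35a, at 330 coding bases, reaches -1.23 in 5-Fu+BBR 1. Of the 22 genes of at least 600 bases, 17 are purple (77.3%), where 9.68% of all genes tested were lower without overlap.

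Ribosomal protein genes have many processed copies in the mouse genome, and reads that fit several copies can be given to any of them. The table has 222 rows named as pseudogenes with -ps, and 55 of the 77 subunit genes have at least 1 such row. In 59 subunit genes the gene itself held at least 90% of the counts of gene plus named pseudogenes. These include the genes without a -ps row, which hold 100% by definition. Copies whose names carry no -ps, such as Rps3a2 for Rps3a1, are not counted here. In 6 it held under 50%: 4.67% for Rpl21, 6.76% for Rps18, 8.42% for Rps2, 13.3% for Rpl35a, 20.3% for Rpl17 and 39.9% for Rpl30. The values of these 6 genes are therefore uncertain, and a high share does not make the values of the others certain. Rps2, the uS5 protein at the mRNA entry, alone had 55.1, 57.7 and 58.5 CPM in the 5-Fu+BBR libraries, against 79.2, 54.4 and 67.5 CPM in the 5-Fu libraries, which overlapped. Summed with its pseudogene rows it had 579.9, 634 and 638 CPM in the 5-Fu+BBR libraries, against 921, 839 and 769 CPM in the 5-Fu libraries, now without overlap and with a log2 fold change of -0.45.

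Counts of some rows named as copies ran opposite to each other across libraries. Rpl7a, a large-subunit protein that also hosts small nucleolar RNA genes, had 422, 229.7 and 252 CPM in the 5-Fu+BBR libraries, against 486, 472 and 197 CPM in the 5-Fu libraries, so both groups held high and low libraries. Its copy Rpl7a-ps11 on the X chromosome had 146, 183 and 189.5 CPM in the 5-Fu+BBR libraries, against 159.5, 109 and 245 CPM in the 5-Fu libraries, low where Rpl7a was high. The sum over Rpl7a and its -ps rows was 586, 436 and 467 CPM in the 5-Fu+BBR libraries, against 669, 604 and 475 CPM in the 5-Fu libraries, which still overlapped. A starker case were 2 copies of Rps18 on chromosome 13. Rps18-ps4 had 23228 counts in 5-Fu+BBR 3 and 0 in the other 5 libraries, while Rps18-ps6 had 0 counts in 5-Fu+BBR 3 and between 17772 and 27582 in the others. Their sum had no such gap, at 300.5, 365 and 419 CPM in the 5-Fu+BBR libraries, against 497, 373 and 471 CPM in the 5-Fu libraries.

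**Figure D5:**
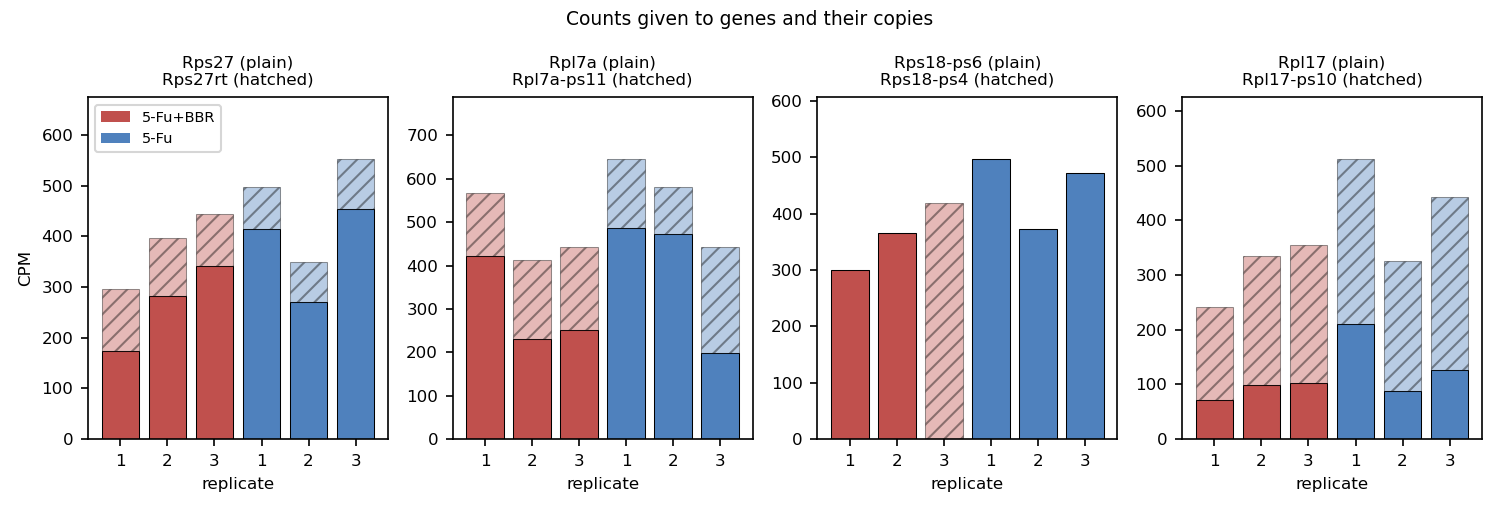
CPM by replicate (5-Fu+BBR left, 5-Fu right) for a gene or copy (plain bars) with a row named as its pseudogene, retrocopy or sister copy stacked on it (hatched bars). In some pairs the plain and hatched parts trade places between libraries, as for Rpl7a in 5-Fu 3 and for Rps18-ps6 and Rps18-ps4 in 5-Fu+BBR 3. Rpl17 and Rpl17-ps10 mostly rise and fall together.

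Rps27rt, an intronless copy of Rps27, was the one member higher at p under 0.05. Its coding sequence on chromosome 9 is the same as that of Rps27 on chromosome 3, base for base over 252 coding bases, whereas Rps27l, a separate paralogue known as a p53 target, matches in 192 of 252. The sequences (GENCODE M21, GRCm38, coding bases without the stop codon) are shown because this identity bears on how reads were shared, and capitals in Rps27l mark the bases that differ from Rps27.
Rps27rt (chr9:114982456-114982707, minus strand): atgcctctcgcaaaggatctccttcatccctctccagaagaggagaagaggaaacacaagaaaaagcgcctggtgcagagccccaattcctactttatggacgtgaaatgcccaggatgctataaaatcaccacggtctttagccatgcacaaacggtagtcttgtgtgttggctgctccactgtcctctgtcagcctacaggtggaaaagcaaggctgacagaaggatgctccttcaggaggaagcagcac
Rps27 (chr3:90212728-90213615, minus strand): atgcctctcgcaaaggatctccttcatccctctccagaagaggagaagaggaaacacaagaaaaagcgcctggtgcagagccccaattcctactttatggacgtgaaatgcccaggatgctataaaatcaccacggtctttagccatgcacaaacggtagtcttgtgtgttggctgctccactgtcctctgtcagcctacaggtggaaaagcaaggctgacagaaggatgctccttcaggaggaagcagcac
Rps27l (chr9:66946175-66949354, plus strand): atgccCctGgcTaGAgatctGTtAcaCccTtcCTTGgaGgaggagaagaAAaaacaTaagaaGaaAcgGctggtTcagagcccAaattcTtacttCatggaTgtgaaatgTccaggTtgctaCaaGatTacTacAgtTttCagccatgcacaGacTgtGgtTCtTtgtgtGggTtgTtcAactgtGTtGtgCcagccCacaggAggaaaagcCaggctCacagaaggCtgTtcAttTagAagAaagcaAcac

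Rps27rt had 121, 114 and 102 CPM in the 5-Fu+BBR libraries, against 82.3, 79.0 and 98.4 CPM in the 5-Fu libraries. Its 5-Fu+BBR libraries all lay above its 5-Fu libraries, the nearest pair being 5-Fu+BBR 3 and 5-Fu 3 (log2 fold change 0.38 ± 0.12 SE, edgeR adjusted p = 0.217). Rps27 itself had 174, 282 and 342 CPM in the 5-Fu+BBR libraries, against 415, 271 and 454 CPM in the 5-Fu libraries, with an overlap at 5-Fu 2 (log2 fold change -0.51 ± 0.28 SE, edgeR adjusted p = 0.43). Of the CPM of both genes, Rps27rt made up 40.9, 28.8 and 23.1% in the 5-Fu+BBR libraries, against 16.6, 22.6 and 17.8% in the 5-Fu libraries. The sum of both was 295, 397 and 444 CPM in the 5-Fu+BBR libraries, against 497, 349.9 and 552 CPM in the 5-Fu libraries, an overlap of the groups. Reads from the shared coding bases cannot be told apart between these 2 genes, so neither value stands on its own. Rps27l had 61.6, 75.9 and 76.3 CPM in the 5-Fu+BBR libraries, against 86.4, 72.6 and 79.2 CPM in the 5-Fu libraries and overlapped (log2 fold change -0.16 ± 0.12).

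All 4 tested paralogues (Rpl22l1, Rpl36al, Rps27l and Rpl7l1) were negative, with a median of -0.21 and none lower at p under 0.05. Rpl22l1, a paralogue of Rpl22 with 69.4% identical coding bases, had 26.04, 71.5 and 72.6 CPM in the 5-Fu+BBR libraries, against 86.7, 66.2 and 73.9 CPM in the 5-Fu libraries. One library, 5-Fu+BBR 1, stood far under the rest there, and Rpl22l1 made up 15.5% of the pair in that library, against 23.5% to 26.9% in the other 5. Rpl36al made up 44.7, 40.6 and 38.5% in the 5-Fu+BBR libraries, against 39.5, 39.2 and 36.7% in the 5-Fu libraries, a nearly constant share of the pair with Rpl36a. Rpl3l, known from heart and skeletal muscle, and Rpl39l, known from testis, were at or under 0.253 CPM and 0.0724 CPM in every library.

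Of the 8 retrocopy or pseudogene rows, 5 were negative and 3 positive. Rps4l, a copy of Rps4x with 79.6% identical bases, had 4.97, 4.67 and 3.55 CPM in the 5-Fu+BBR libraries, against 5.91, 6.58 and 6.31 CPM in the 5-Fu libraries, without overlap (log2 fold change -0.51 ± 0.22 SE, edgeR adjusted p = 0.318). Rps3a2 and Rps3a3 match Rps3a1 in 99.5% and 98.9% of the aligned bases, and the 3 rows together had 654, 782 and 792 CPM in the 5-Fu+BBR libraries, against 1038, 868 and 991 CPM in the 5-Fu libraries. That sum separated the groups, as Rps3a1 alone did (log2 fold change -0.35 ± 0.13 SE, edgeR adjusted p = 0.25). Rps23rg1 and Rpl32l, the other positive rows, had under 2 CPM in every library, and Rpl32l turned negative under several settings.

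Small nucleolar RNAs, which guide modification of rRNA, are often encoded in introns of ribosomal protein genes. Of the 77 subunit genes 30 hold 57 annotated small nucleolar RNA genes. The 30 hosts had a median log2 fold change of -0.35 with 14 lower without overlap (46.7%). The 47 other subunit genes had a median of -0.35 with 13 lower without overlap (27.7%). That share was 9.68% of all genes tested and 18.6% of other genes averaging 100 CPM or more. The 2 sets were not tested against each other. The members lie on 19 chromosomes, with at most 14 on any 1.

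RefSeq promoter sequences (GRCm38.p6, from 250 bases before to 50 after each annotated start) matched 67 of the 91 members, with 79 promoters. A C followed by at least 4 C or T, as in a TOP sequence, began within 10 bases of the start on the gene's strand in 54.4% of member promoters (43 of 79) and in 30.7% of all 32851. The letters CCGGAA on either strand, the core bound by ETS factors such as GABP, stood in 46.8% of member promoters (37 of 79) and in 14.9% of all. Both can fall on the same bases where the run is followed by TTCCGG. The windows below run from 10 bases before the annotated start to 20 bases from it on, with every such C run that begins up to 10 bases from the start in capitals. They are shown for those members with the smallest p or the highest FPKM that have an entry, and for the Rps27 pair.
Rps12 (chr10:23787190-23787219, minus strand): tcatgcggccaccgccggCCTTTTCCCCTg
Rps6 (chr4:86857348-86857377, minus strand): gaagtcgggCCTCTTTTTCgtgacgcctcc
Rpl10a (chr17:28328461-28328490, plus strand): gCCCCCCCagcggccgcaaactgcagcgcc
Rps4x (chrX:102189372-102189401, minus strand): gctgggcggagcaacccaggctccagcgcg
Rps3a1 (chr3:86142649-86142678, minus strand): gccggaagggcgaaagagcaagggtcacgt
Rps15 (chr10:80292421-80292450, plus strand): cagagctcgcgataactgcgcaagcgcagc
Rpl41 (chr10:128549149-128549178, minus strand): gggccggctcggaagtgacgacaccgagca
Rps27 (chr3:90213629-90213658, minus strand): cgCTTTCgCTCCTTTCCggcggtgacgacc
Rps27rt (chr9:114982720-114982749, minus strand): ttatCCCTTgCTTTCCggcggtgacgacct

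In Rps27rt a run begins at the annotated start and another before it, and in Rps27 both runs begin before the start, the longer one crossing it. The run of Rps6 begins 1 base before the start and crosses it, that of Rpl10a lies before the start and that of Rps12 after it. Rps4x, Rps3a1, Rps15 and Rpl41 have none in this window, which says only that these letters are not there. The 34 subunit genes with a run had a median log2 fold change of -0.32 and the 23 matched genes without one -0.35. For the CCGGAA letters the medians were -0.34 over 32 genes with and -0.33 over 25 genes without. These medians were not tested against each other.

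Some proteins of the ribosome are not reached by the name rule. Rack1, the kinase scaffold on the 40S head, had 687, 729 and 727 CPM in the 5-Fu+BBR libraries, against 915, 783 and 951 CPM in the 5-Fu libraries (log2 fold change -0.31 ± 0.13 SE, edgeR adjusted p = 0.311). Fau, made as a fusion of a ubiquitin-like protein with a small-subunit protein, had a log2 fold change of -0.31 ± 0.20. Of 26 other TOP-type transcripts of translation, among them both of these, all 26 were negative with a median of -0.25. At p under 0.05, 9 were lower (34.6%), against 6.08% of all genes tested and 12.2% of other genes averaging 100 CPM or more. Without overlap 14 were lower (53.8%), against 9.68% and 18.6% of those 2 sets. Eef1b2, the exchange factor of eEF1A, had 338, 411 and 389 CPM in the 5-Fu+BBR libraries, against 579, 447 and 651 CPM in the 5-Fu libraries (log2 fold change -0.56 ± 0.17 SE, edgeR adjusted p = 0.19). Eif4b, a helper of the helicase eIF4A, had a log2 fold change of -0.39 ± 0.14, and Eif2s3x, a subunit of the initiator tRNA carrier, -0.28 ± 0.10.

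Ribosomes are assembled by a separate set of factors. Of 58 genes of RNA polymerase I and rRNA processing, 52 were negative with a median of -0.16. At p under 0.05, 8 were lower (13.8%) and 1 higher, and 9 were lower without overlap (15.5%). Of all genes tested, 6.08% were lower at p under 0.05 and 9.68% lower without overlap. Most genes of this list averaged under 100 CPM, so the shares of abundant genes are not its background. Eif6, which keeps the large subunit from joining too early, had 166, 172 and 146 CPM in the 5-Fu+BBR libraries, against 249, 179 and 239.7 CPM in the 5-Fu libraries (log2 fold change -0.46 ± 0.15 SE, edgeR adjusted p = 0.218). Polr1c, a subunit shared by polymerases I and III, had a log2 fold change of -0.36 ± 0.12, and Noc4l, a factor of small-subunit assembly, -0.53 ± 0.18. The 83 proteins of the mitochondrial ribosome, built to the same plan but encoded by a separate gene family, had a median of -0.15 with 70 negative. Of them, 4 were lower at p under 0.05 (4.82%) and 12 lower without overlap (14.5%), against the same 6.08% and 9.68% of all genes tested. Neither list had a gene past the adjusted threshold, and the lists were not tested against the members.

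Among 18 genes around mTORC1 and LARP1, 13 were negative with a median of -0.14. At p under 0.05, 5 were lower (27.8%) and 1 higher (5.56%), against 6.08% and 9.48% of all genes tested. Ddit4, the stress-induced inhibitor of mTORC1 known as REDD1, had 58.1, 40.0 and 60.6 CPM in the 5-Fu+BBR libraries, against 83.5, 92.1 and 101 CPM in the 5-Fu libraries (log2 fold change -0.80 ± 0.17 SE, edgeR adjusted p = 0.115). Deptor, another inhibitor in the complex, had 111, 116 and 129 CPM in the 5-Fu+BBR libraries, against 166, 156 and 168 CPM in the 5-Fu libraries (log2 fold change -0.46 ± 0.10 SE, edgeR adjusted p = 0.131). Both separated the groups without passing the adjusted threshold. Rps6kb2, a second S6 kinase, went the other way at 0.41 ± 0.13. The 6 genes of the 5S particle, Mdm2 and p53 had a median of -0.01. They include the members Rpl5 (-0.33) and Rpl11 (-0.22), beside Cdkn1a (-0.04), Mdm2 (0.01), Trp53 (0.17) and Mdm4 (0.21). The median was -0.04 over 10 genes of ribosome stalling and rescue, and -0.07 over 9 factors named for ribosomal protein promoters.

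Summed RNA levels of several marker lists of other cell types differed between the groups; cell numbers were not measured, and the part of these markers in the members' values was not tested. All 8 smooth muscle markers were higher in the 5-Fu+BBR libraries (7 without overlap), with sums from 4246 to 4870.0 CPM, against 2286 to 2999.9 CPM in the 5-Fu libraries. All 8 B and plasma cell markers were higher (7 without overlap), summing to 3116 to 6780.1 CPM in 5-Fu+BBR, against 1427 to 2674 CPM in 5-Fu. All 8 adipocyte markers were higher without overlap, with sums of 108 to 193 CPM in 5-Fu+BBR, against 31.7 to 44.2 CPM in 5-Fu, and Lep was at 0 in all 5-Fu libraries. For T and NK cells all 8 were higher (6 without overlap), at 44.3 to 73.3 CPM in 5-Fu+BBR, against 22.2 to 27.6 CPM in 5-Fu. Goblet cell markers, 8 of 8 higher but 2 without overlap, summed to 13536 to 15755 CPM in 5-Fu+BBR, against 7166 to 12784 CPM in 5-Fu. None of the genes in these marker lists passed the adjusted threshold. Of all genes tested, 12.3% were higher and 9.68% lower without overlap.

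Colon epithelium markers were present in all libraries, as the label says (4 of 10 lower, none without overlap). Their 10 genes summed to 11758, 10627 and 11763 CPM in 5-Fu+BBR, against 11181, 9128 and 13468 CPM in 5-Fu, with 5-Fu 2 lowest. Single genes could spread more than the sum, as Car4 did with 282, 320 and 391 CPM in 5-Fu+BBR, against 472, 102 and 764 CPM in 5-Fu. Dividing crypt cell markers (6 of 8 lower, none without overlap) summed to 509, 469 and 394 CPM in 5-Fu+BBR, against 614, 566 and 333 CPM in 5-Fu. Neutrophil markers (7 of 8 lower, 2 without overlap) summed to 5.84 to 31.0 CPM in 5-Fu+BBR, against 14.3 to 91.5 CPM in 5-Fu, and Camp was at 0 in all 5-Fu+BBR libraries. Skeletal muscle markers were sparse, with 3 of 8 below the count filter and sums of 11.8 to 17.0 CPM in 5-Fu+BBR, against 9.72 to 15.4 CPM in 5-Fu.

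Most of the kidney markers on the list were high in 2 libraries. The 10 genes summed to 66.4, 225 and 221 CPM in the 5-Fu+BBR libraries, against 80.8, 72.0 and 86.7 CPM in the 5-Fu libraries, with 8 of 10 higher and none at 0 in all libraries. The part of these kidney transcripts in the members' values was not tested. With 5-Fu+BBR 2 and 3 both left out, the members' median was -0.46, which is a comparison with 1 library.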

How the data were processed

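RNA of colon tissue was measured in 6 libraries, grouped by treatment. Trizol extraction, oligo(dT) selection and strand-marked paired-end libraries with molecular identifiers are stated in the labels' protocols. Build GRCm38, StringTie 1.3.4d, HISAT2 2.0.4, cutadapt 1.9, UMI-tools, edgeR and DESeq2 appear in the submitters' processing notes, without roles. How reads fitting several copies were counted is not stated there. The deposited table holds an estimated count per gene and library, whole numbers that were used as they stand, and an FPKM value (per transcript length and library size) made by the authors. Counts of single-transcript genes lay within 2% of FPKM times length, up to 1 constant per library, for 92.1% to 93.2% of them, so both come from the same quantification.

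The counts were filtered with filterByExpr, scaled by TMM and tested with edgeR 4.0.16 (robust quasi-likelihood test, two-sided, Benjamini-Hochberg over 20101 genes) in R 4.3.3, without covariates. The procedure was run on simulated data with changes much larger than those of the members, which does not test it at their size. Alternatives used limma 3.58.1 on voom values and on log2(FPKM + 1), which understates changes of low genes, and DESeq2 1.42.0; family sums, a newer quasi-likelihood method and totals without mitochondrially encoded genes were added after seeing the data. Intervals on depth are not given, since 80 members had at least 1000 counts in every library. Sequences came from GENCODE M21 and RefSeq promoter tables. Members and lists were chosen with earlier results of these data known. Named members are those with the smallest p, extreme fold change or highest FPKM, fixed examples and paralogue pairs; other subunit genes, Rps24, Rps26, Rps3, Rps2, Rpl7a and the pseudogene rows among them, were named after their values were seen. Values of 2 genes are not reported here by name.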

Additional observations from a re-analysis of the deposited data

How the results depend on the processing

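The members' negative median (-0.35) held its sign in all settings run, between -0.25 and -0.46. The count of members past the adjusted threshold stayed at 0 except with DESeq2 (6). Of genes in all, 15 passed, against 26 with library totals alone, 77 without a filter, 1227 with DESeq2, 0 without 5-Fu+BBR 2 and 3 together, and 0 to 159 leaving out 1 library at a time. Members lower at p under 0.05 numbered 32, from 23 with upper-quartile scaling to 46 with DESeq2, and 2 to 60 leaving out 1 library. Those without overlap numbered 29, against 51 on FPKM with either pseudocount (1 or 0.1). They numbered 27 with upper-quartile scaling, 38 without a filter and 43 with library totals alone. Leaving out 1 library gave 29 to 76, and leaving out 5-Fu+BBR 2 and 3 gave 75. The 75 rests on 1 library in its group, which separates more easily, so it is not comparable with 29. Shares of all genes are not given for the other settings, so these counts and those at p under 0.05 have no background there. The share difference of -0.721 points became -1.25 on FPKM, -1.05 without 5-Fu+BBR 2 and 3, and -0.558 to -0.886 leaving out 1 library. The cause of these shifts was not tested.

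Replicate numbers are shared by the groups. Deviations of same-numbered libraries correlated at 0.058, 0.024 and 0.123, and those of differently numbered libraries at -0.146 to 0.104. With 3 libraries per group these values cannot decide whether the numbers pair the libraries. With a replicate block, 113 genes and 0 members passed, 24 members were lower at p under 0.05 and the members' median was -0.33.

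The directions of 4 genes turned, all with changes near 0 or few counts. Rpl32l (0.09) became -0.02 with voom, with FPKM + 0.1 and with the block, -0.44 without 5-Fu+BBR 3 (0.35 without 5-Fu+BBR 1), -0.03 without 5-Fu 2 and -0.68 without 5-Fu+BBR 2 and 3. Rpl29 (0.19) became -0.03 without 5-Fu+BBR 2 (0.33 without 5-Fu+BBR 1) and -0.15 without 5-Fu+BBR 2 and 3, Rpl19 (-0.08) became 0.06 without those 2, and the skeletal muscle marker Mylpf (-0.19) became 0.06 without 5-Fu 1. For the 35 named members tested, 718 of 733 values under other settings kept their direction and side of the threshold, 9 turned and 6 passed it. For 49 other named genes 956 of 995 kept both, 1 turned and 38 passed it.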

Other observations

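Pseudogene rows named after the ribosomal protein genes were mostly negative too. Of 222 rows 155 were tested, and 134 of them were negative with a median of -0.31. At p under 0.05, 23 were lower (14.8%), against 6.08% of all genes tested and 36.0% of the members. Without overlap 35 were lower (22.6%), against 9.68% of all genes tested and 32.6% of the members. None passed the adjusted threshold, and the rows were not tested against the genes. They took 0.327%, 0.392% and 0.417% of the counts in the 5-Fu+BBR libraries, against 0.494%, 0.425% and 0.475% in the 5-Fu libraries, without overlap. Rps12-ps3 had 153, 162 and 155 CPM in the 5-Fu+BBR libraries, against 221, 163 and 236 CPM in the 5-Fu libraries, and Rpl3-ps1 had 260.3, 304 and 296 CPM in the 5-Fu+BBR libraries, against 409.7, 359 and 358 CPM in the 5-Fu libraries. How far these counts are reads of the parent genes was not tested.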
